A study of Mus musculus with 12 samples.

Results

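Chondrocytes from mice lacking Phlpp1, Phlpp2 or both were compared, as 1 set of knockouts, with chondrocytes from wild type (WT) mice. The knockouts were the 9 libraries labelled Phlpp1 KO, Phlpp2 KO and Phlpp1/2 KO, with 3 libraries each, and they were set against the 3 WT libraries, so the comparison used all 12 libraries of the series. Libraries were taken by their labels, and the value reported is the mean of the 3 knockout effects minus WT, with each genotype weighted equally. The cells were primary chondrocytes of the epiphyses, the cartilage ends of the long bones, from 5-day-old mice that were all labelled female. They had been freed with collagenase, frozen, thawed and kept overnight in medium with serum before bulk RNA sequencing. The strain label was C57BL6 for WT, Phlpp1 KO and Phlpp2 KO 1 and 2, C57BL7 for Phlpp2 KO 3, and C57BL8, C57BL9 and C57BL10 for Phlpp1/2 KO 1, 2 and 3. The labels do not say which part of either gene was removed, in which cells, or whether a library was 1 animal or a pool, so p-values measure the spread between these libraries.

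PHLPP1 and PHLPP2 are phosphatases that take a phosphate off AKT and off several other kinases, and thereby limit signals that reach the cell through growth factor receptors. AKT in turn holds FOXO transcription factors out of the nucleus, and the ERK pathway switches on immediate early genes within minutes of a stimulus. In the growth plate these pathways take part in the division and maturation of chondrocytes. The averaged contrast asks which genes differ from WT on average over the 3 knockouts.

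Library totals ran from 21706337 to 33115345 counts, so 1 count was worth 0.0295 to 0.0453 CPM, the unit of a count scaled to the size of its library. Chondrocyte markers summed to 28358 to 52163 CPM in the knockouts and 34751 to 52605 CPM in WT. Skeletal muscle markers summed to 11.1 to 66.6 CPM in the knockouts, and to 32.0, 139 and 28.1 CPM in WT 1, 2 and 3. The 13 mitochondrially encoded genes summed to 7411 to 11473 CPM in the knockouts and 6793 to 7440 CPM in WT, and the part of muscle and mitochondrial RNA in the gene results was not tested. Of the erythroid markers, Hbb-bs and Hbb-bt had 0 counts in all 12 libraries. Xist, the RNA that silences an X chromosome in female cells, stood at 13.9 CPM in Phlpp1 KO 1 and 3.77 CPM in Phlpp1/2 KO 1, against 278 to 587 CPM in the other 10 libraries. Phlpp1/2 KO 1 also had 108.5 CPM in sum of 4 Y chromosome genes, against at most 1.23 CPM elsewhere.

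The contrast called 43 of 16565 tested genes, or 0.26%, at an adjusted p under 0.05 (edgeR's quasi-likelihood test, Benjamini-Hochberg). Of these, 17 were higher in the knockouts (0.103% of all tested genes) and 26 were lower (0.157%). Pseudogenes made up 12 of the calls and genes with a near-identical copy elsewhere in the genome made up 7, and 1 other gene, mt-Tg, stayed under 1 CPM. The remaining 23 genes, 8 higher and 15 lower, are the ones described first. In 14 of the 23, 4 higher and 10 lower, all 9 knockout libraries lay on one side of all 3 WT libraries, which was so for 3.71% of all tested genes (1.66% higher and 2.05% lower). In 9 the groups overlapped, and in 5 the knockouts differed among themselves. At an unadjusted p under 0.05, 1546 genes were higher (9.33%) and 1401 lower (8.46%), and the median log2 fold change of all tested genes was -0.01, with 47.0% above 0 and 53.0% below. DESeq2 called 621 genes (3.75%, with 2.5% higher and 1.25% lower), including all 23, and limma-voom called 39 (0.235%), including 18 of the 23.

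**Figure D1:**
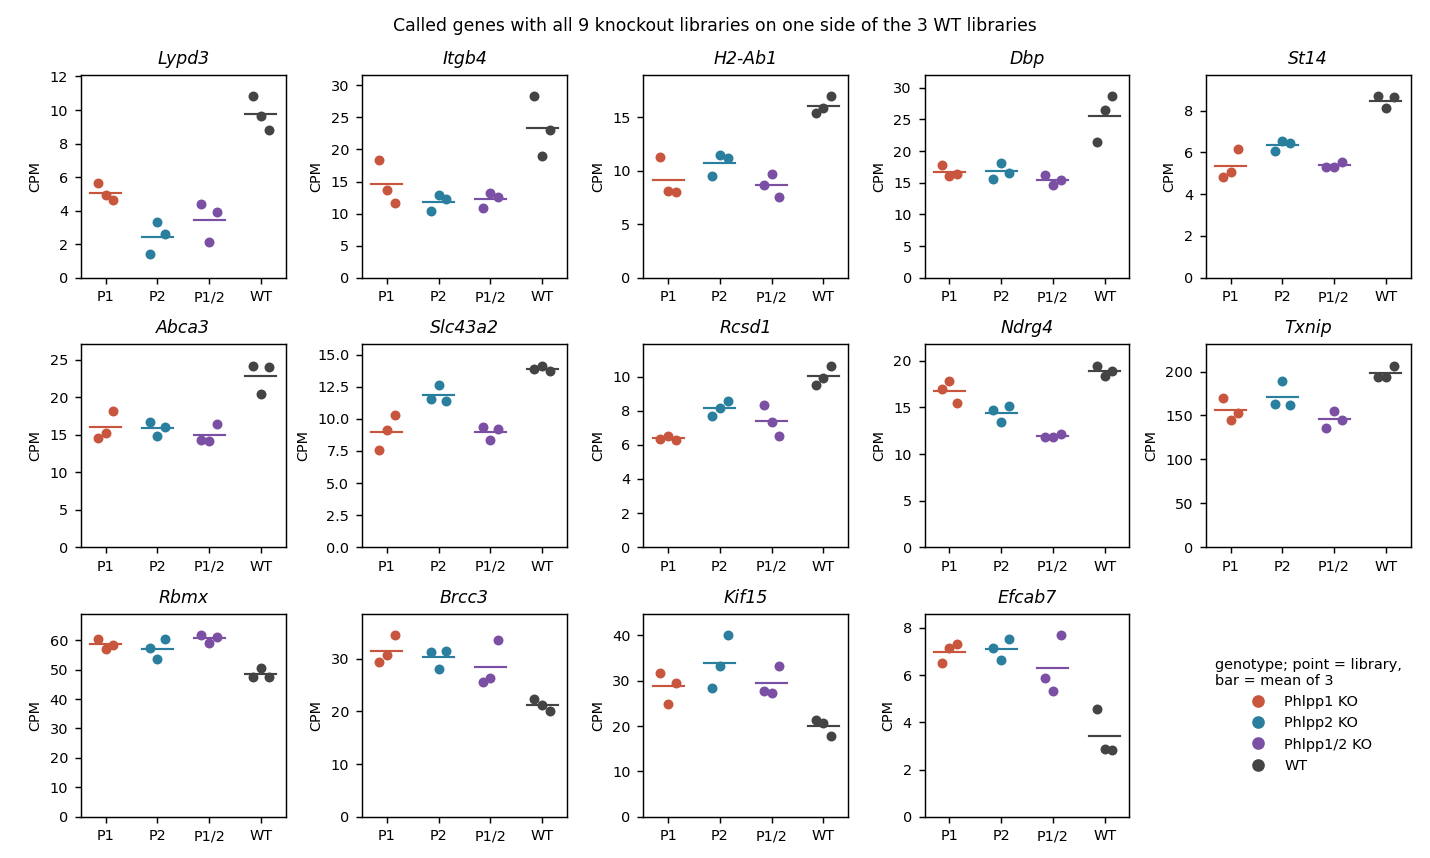
CPM by library (vertical axes, from 0) of the 14 called genes in which all 9 knockout libraries lay on one side of the 3 WT libraries, with Phlpp1 KO, Phlpp2 KO, Phlpp1/2 KO and WT along the horizontal axes. Points are libraries and bars are means of 3. Lypd3 stood at 1.41 to 5.62 CPM in the knockouts and 8.79 to 10.8 CPM in WT, and Efcab7 at 5.32 to 7.68 CPM in the knockouts and 2.83 to 4.57 CPM in WT.

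Lypd3, Itgb4 and St14 fell in all 9 knockout libraries. Lypd3 (chromosome 7, 24636550 to 24641118, mm10), a lipid-anchored surface glycoprotein of squamous epithelia, had 5.62, 4.96 and 4.62 CPM in Phlpp1 KO, 1.41, 3.34 and 2.61 CPM in Phlpp2 KO, and 4.38, 2.11 and 3.90 CPM in Phlpp1/2 KO, against 10.8, 9.66 and 8.79 CPM in WT. All 9 knockout libraries were below every WT library, and Phlpp2 KO 1 was the lowest. Lypd3 fell 2.77-fold (log2 fold change -1.47, SE 0.21, adjusted p = 0.00985, edgeR's quasi-likelihood test, Benjamini-Hochberg). Itgb4 (chromosome 11, 115974709 to 116008412), the integrin subunit of hemidesmosomes, had 18.4, 13.7 and 11.6 CPM in Phlpp1 KO, 10.4, 12.9 and 12.2 CPM in Phlpp2 KO, and 10.9, 13.2 and 12.6 CPM in Phlpp1/2 KO, against 28.3, 19.0 and 23 CPM in WT. Phlpp1 KO 1, the highest knockout library, lay just under WT 2, the lowest WT library. Itgb4 fell 1.82-fold (log2 fold change -0.86, SE 0.14, adjusted p = 0.0171). St14 (chromosome 9, 31089402 to 31131853), the membrane protease matriptase, stood at 5.70 ± 0.631 CPM in the knockouts (SD, n = 9) and 8.48 ± 0.323 CPM in WT (SD, n = 3), and fell by 0.58 on the log2 scale (SE 0.09, adjusted p = 0.013, edgeR).

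Keratinocyte markers lay on the same side of WT. All 7 tested of the 10 listed keratinocyte markers, Lypd3 itself among them, were below 0 in log2 fold change, with a median of -0.35. Over all tested genes 53.0% were below 0. At an unadjusted p under 0.05, 3 markers were lower and 0 higher, where 8.46% and 9.33% of all tested genes were. The edgeR test called Lypd3 alone, where it called 0.157% of all tested genes lower. DESeq2 called Lypd3 and Perp, where it called 1.25% lower, and limma-voom called 1. The list summed to 52.5 to 64.8 CPM in the knockouts and 71.5 to 84.7 CPM in WT. Most of that sum was Perp, a desmosome protein, at 40.1 ± 3.92 CPM in the knockouts (SD, n = 9) and 51.1 ± 5.60 CPM in WT (SD, n = 3; log2 fold change -0.35, adjusted p = 0.0879, edgeR). The basal keratin Krt5 had 6 to 13 counts per library in the knockouts and 10 to 20 in WT. Krt14 had at most 3 counts in any library, and Krt15 had 0 counts in 11 of the 12. In bulk RNA, fewer cells of a type and less RNA per cell cannot be told apart, and the part of these cells in the Lypd3, Itgb4 and St14 values was not tested.

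H2-Ab1 and Fcgrt also fell. H2-Ab1 (chromosome 17, 34257689 to 34269419), the beta chain of a class II major histocompatibility complex (MHC) molecule, had 11.2, 8.08 and 8.03 CPM in Phlpp1 KO, 9.51, 11.4 and 11.2 CPM in Phlpp2 KO, and 8.66, 9.70 and 7.53 CPM in Phlpp1/2 KO, against 15.4, 15.9 and 16.9 CPM in WT. The 2 groups were well apart, since the highest knockout library was under the lowest WT library by more than the whole WT range. H2-Ab1 fell 1.70-fold (log2 fold change -0.77, SE 0.11, adjusted p = 0.00824, edgeR). Class II molecules also need an alpha chain and loading factors. Of 5 tested class II genes, 3 were below 0 and 2 above, where 53.0% of all tested genes were below, and H2-Ab1 was the 1 call. H2-DMb1, a class II peptide loader, averaged 3.09 ± 0.837 CPM in the knockouts (SD, n = 9) and 4.76 ± 0.468 CPM in WT (SD, n = 3; log2 fold change -0.65, adjusted p = 0.0879, edgeR). It has a near-identical copy, H2-DMb2, over 77.0% of its transcript. H2-Eb1, another beta chain, averaged 2.42 CPM in the knockouts and 2.13 CPM in WT (log2 fold change 0.18, adjusted p = 0.612, edgeR), and Ciita, H2-Aa and H2-Ob were too low to test. Fcgrt, the heavy chain of the neonatal Fc receptor, averaged 27.2 ± 3.63 CPM in the knockouts (SD, n = 9) and 35.6 ± 2.69 CPM in WT (SD, n = 3; log2 fold change -0.40, adjusted p = 0.0163, edgeR). It was chosen after its values were seen, and its groups overlapped, with Phlpp2 KO 2 at 33.4 CPM and WT 1 at 32.5 CPM.

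The class I and interferon lists leaned the same way with no call. Over all tested genes 53.0% were below 0, and 8.46% were lower and 9.33% higher at an unadjusted p under 0.05. Of 13 class I genes, 10 were below 0, 7 of them at that p and 0 upward, with a median log2 fold change of -0.28. Closest to the threshold were H2-K1, a class I heavy chain with near-identical copies (log2 fold change -0.33, adjusted p = 0.0522), and Tap1, the peptide transporter (-0.33, adjusted p = 0.0784, edgeR). Of 23 tested interferon response genes, 21 were below 0 and 10 passed the unadjusted p, with medians of -0.62 in Phlpp1 KO, -0.15 in Phlpp2 KO and -0.33 in Phlpp1/2 KO. DESeq2 called 2 class I genes and 2 interferon genes lower, and limma-voom called 0 of either list. Macrophage and osteoclast markers summed to 165 to 195 CPM in the knockouts and 167 to 186 CPM in WT, with 9 of 14 tested above 0. Their median log2 fold change was 0.20, with 0 calls, and 2 were higher and 1 lower at the unadjusted p. Mrc1 was the 1 member with all 9 knockout libraries above WT in CPM, as in 1.66% of all tested genes. Its raw counts, not scaled to library size, were 62 to 130 per library against 35 to 52. Library totals were 25555599 to 33115345 counts in the knockouts and 21706337 to 27829144 in WT, so raw counts overstate the gap. The complement gene C1qa had 2 to 31 counts per library in the knockouts and 4 to 10 in WT.

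Dbp and Nr1d1, a pair of circadian clock genes, fell. The clock is a loop of transcription factors in which CLOCK and BMAL1 drive their own repressors, and Dbp and Tef belong to a family of output factors it drives. Dbp (chromosome 7, 45705088 to 45710203) had 17.8, 16.0 and 16.4 CPM in Phlpp1 KO, 15.6, 18.2 and 16.6 CPM in Phlpp2 KO, and 16.2, 14.6 and 15.5 CPM in Phlpp1/2 KO, against 21.4, 26.5 and 28.6 CPM in WT. The 9 knockout libraries lay within a narrower span than the 3 WT libraries and below all of them. Dbp fell 1.57-fold (log2 fold change -0.65, SE 0.08, adjusted p = 0.00286, edgeR), by 0.61, 0.60 and 0.73 on the log2 scale in Phlpp1 KO, Phlpp2 KO and Phlpp1/2 KO. Nr1d1 (chromosome 11, 98767932 to 98775333), the repressor REV-ERB alpha, averaged 54.8 ± 5.40 CPM in the knockouts (SD, n = 9) and 70.1 ± 6.36 CPM in WT (SD, n = 3; log2 fold change -0.36, SE 0.07, adjusted p = 0.049, edgeR). Its groups overlapped, since Phlpp1 KO 2 had 65.1 CPM and WT 2 had 64.0 CPM.

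The clock list held 24 genes, all tested, of which 18 were below 0. Of the list, 9 passed the unadjusted p downward and 0 upward, where 8.46% of all tested genes passed it downward. The median log2 fold change of the list was -0.16. All 9 knockout libraries were below the 3 WT libraries for Dbp, Tef, Bhlhe41 and Cry2, as for 2.05% of all tested genes. In CPM summed over the list, the knockouts ran from 803 to 896 and WT from 862 to 935, so the groups overlapped. Tef averaged 63.9 ± 4.18 CPM in the knockouts (SD, n = 9) and 77.7 ± 5.40 CPM in WT (SD, n = 3; adjusted p = 0.0703, edgeR). Bhlhe41, a repressor of the loop, averaged 18.2 ± 0.987 CPM in the knockouts and 21.9 ± 0.735 CPM in WT (adjusted p = 0.0788, edgeR). Per2, a core repressor, had a log2 fold change of -0.36 (adjusted p = 0.104, edgeR). DESeq2 called 5 clock genes lower (Dbp, Nr1d1, Per2, Tef and Bhlhe41), while limma-voom called only Dbp. The time of day at which cells were taken is not given in the labels, so a shared sampling time and genotype cannot be told apart.

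The sequences before the RefSeq starts of Dbp, Nr1d1 and Tef are shown because the first 2 were called and Tef, not past the test, had all 9 knockout libraries below WT. Each is the 250 bases before the RefSeq gene start (GRCm38.p6), read 5′ to 3′ on the strand of the gene, with E-boxes in capitals. Dbp lies on chromosome 7 at 45704997 to 45705246 (plus strand), Nr1d1 on chromosome 11 at 98775378 to 98775627 (minus strand) and Tef on chromosome 15 at 81802423 to 81802672 (plus strand). The Dbp window lies in part inside the gene as GENCODE places it. Tef has a second RefSeq start, whose window at 81811164 to 81811413 also holds an E-box and is not printed.
Dbp: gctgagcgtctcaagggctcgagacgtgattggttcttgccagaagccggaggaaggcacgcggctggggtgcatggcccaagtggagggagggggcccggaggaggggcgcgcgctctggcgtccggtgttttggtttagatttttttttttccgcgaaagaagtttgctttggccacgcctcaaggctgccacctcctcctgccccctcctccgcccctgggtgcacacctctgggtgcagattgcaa
Nr1d1: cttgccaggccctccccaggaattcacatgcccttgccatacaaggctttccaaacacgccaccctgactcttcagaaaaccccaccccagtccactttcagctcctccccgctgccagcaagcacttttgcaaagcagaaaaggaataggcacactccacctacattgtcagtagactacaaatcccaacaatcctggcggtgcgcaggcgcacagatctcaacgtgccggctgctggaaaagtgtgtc
Tef: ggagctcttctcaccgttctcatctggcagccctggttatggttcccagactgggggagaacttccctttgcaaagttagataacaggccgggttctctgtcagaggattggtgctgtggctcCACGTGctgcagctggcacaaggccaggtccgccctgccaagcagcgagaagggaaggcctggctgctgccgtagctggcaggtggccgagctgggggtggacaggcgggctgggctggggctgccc

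A set of 3 motifs was searched on both strands of these windows. The E-box CACGTG, the core letters bound by CLOCK and BMAL1, was in 6.02% of 32851 RefSeq windows. Counting a gene once if any of its windows held the letters, it was in 6.86% of 27025 genes and in 5 of 19 matched clock genes, Tef among them and neither Dbp nor Nr1d1. The D-box TTATGTAA, bound by Dbp and Tef, was in 0.819% of windows, in 0.977% of genes, and in Per3 and Timeless of the clock list. The short site AGGTCA, bound by REV-ERB proteins, was in 14.0% of windows, in 15.8% of genes and in 4 of the 19. A match describes the letters of the window only.

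Txnip, Abca3, Slc43a2, Rcsd1 and Ndrg4 also fell in all 9 knockout libraries. Txnip (chromosome 3, 96557957 to 96561883), an inhibitor of thioredoxin that also limits glucose uptake, averaged 158 ± 15.9 CPM in the knockouts (SD, n = 9) and 198 ± 7.06 CPM in WT (SD, n = 3; log2 fold change -0.34, adjusted p = 0.0495, edgeR). Abca3 (chromosome 17, 24351950 to 24410201), a lipid transporter known from lung surfactant, averaged 15.6 ± 1.33 CPM in the knockouts and 22.9 ± 2.11 CPM in WT (-0.55, adjusted p = 0.0108, edgeR). Its 3 single-genotype changes lay close together, at -0.52, -0.53 and -0.61. Slc43a2 (chromosome 11, 75531694 to 75577575), an amino acid transporter, averaged 9.95 ± 1.66 CPM in the knockouts and 13.9 ± 0.220 CPM in WT (-0.50, adjusted p = 0.0317, edgeR). Rcsd1 (chromosome 1, 165646516 to 165709757), which binds actin capping protein, averaged 7.31 ± 0.925 CPM in the knockouts and 10.0 ± 0.569 CPM in WT (-0.46, adjusted p = 0.049, edgeR). Ndrg4 (chromosome 8, 95676980 to 95715119), a cytoplasmic protein of the NDRG family, had 17.0, 17.8 and 15.5 CPM in Phlpp1 KO, 14.7, 13.5 and 15.1 CPM in Phlpp2 KO, and 11.9, 11.8 and 12.1 CPM in Phlpp1/2 KO, against 19.5, 18.3 and 18.9 CPM in WT. Its values stepped down by genotype, but the difference among the 3 knockouts did not pass (adjusted p = 0.0727), and the mean fall was 0.41 on the log2 scale (SE 0.06, adjusted p = 0.0134, edgeR).

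Txnip is also a target of FOXO factors, which active AKT holds out of the nucleus. Of the 27 FOXO factors and targets listed, 23 were below 0, with a median log2 fold change of -0.17 and Txnip as the 1 call. At an unadjusted p under 0.05, 10 were lower and 0 higher, where 8.46% of all tested genes were lower. Ulk1, a kinase that starts autophagy, averaged 22.4 ± 1.63 CPM in the knockouts (SD, n = 9) and 27.0 ± 2.32 CPM in WT (SD, n = 3), with no overlap (log2 fold change -0.27, adjusted p = 0.0859, edgeR). Pink1, a kinase of mitochondrial quality control, had -0.27 (adjusted p = 0.0916) and Foxo3 itself -0.21 (adjusted p = 0.104, edgeR). DESeq2 called 4 of the list lower and limma-voom called 0. In CPM summed over the list, the knockouts ran from 1695 to 1985 and WT from 1936 to 1998, so the groups overlapped. The FOXO list and its summed level are mRNA measurements, and phosphorylation of AKT was not measured.

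A set of 4 genes rose in all 9 knockout libraries, among them a mitotic motor. Kif15 (chromosome 9, 122951046 to 123018733), a kinesin of the mitotic spindle, had 31.8, 25.0 and 29.5 CPM in Phlpp1 KO, 28.4, 33.2 and 40.0 CPM in Phlpp2 KO, and 27.8, 27.4 and 33.2 CPM in Phlpp1/2 KO, against 21.3, 20.6 and 17.9 CPM in WT. Phlpp2 KO 3 was the highest and Phlpp1 KO 2 the lowest of the knockouts, still above WT. Kif15 rose 1.54-fold (log2 fold change 0.62, SE 0.11, adjusted p = 0.0443, edgeR). Efcab7 (chromosome 4, 99829198 to 99912788), a calcium-binding-type protein of the primary cilium with a role in hedgehog signalling, had 6.49, 7.16 and 7.33 CPM in Phlpp1 KO, 7.16, 6.65 and 7.51 CPM in Phlpp2 KO, and 5.89, 5.32 and 7.68 CPM in Phlpp1/2 KO, against 4.57, 2.88 and 2.83 CPM in WT. Its rise was 1.00 on the log2 scale (SE 0.16, adjusted p = 0.0163, edgeR), and its changes in the 3 knockouts were 1.04, 1.06 and 0.89. Brcc3 (chromosome X, 75416628 to 75454001), a deubiquitinase of DNA repair complexes, averaged 30.0 ± 3.04 CPM in the knockouts (SD, n = 9) and 21.2 ± 1.16 CPM in WT (SD, n = 3; 0.50, adjusted p = 0.0317, edgeR). Rbmx (chromosome X, 57383530 to 57393036), an RNA-binding splicing regulator, averaged 58.7 ± 2.5 CPM in the knockouts and 48.5 ± 1.85 CPM in WT (0.27, adjusted p = 0.032, edgeR). Both lie on the X chromosome. Without the 2 libraries of low Xist, Brcc3 was still called and Rbmx was not (adjusted p = 0.0908).

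The cell cycle list leaned upward with 0 calls of 34 genes. Of its members, 32 were above 0, as were 47.0% of all tested genes. The unadjusted p was passed by 13 upward and 0 downward, where 9.33% of all tested genes passed it upward. DESeq2 called 10 and limma-voom 0. The median log2 fold change was 0.31 over the list, and 0.14 in Phlpp1 KO, 0.31 in Phlpp2 KO and 0.42 in Phlpp1/2 KO. The 9 knockout libraries were above the 3 WT libraries in 6 members, as in 1.66% of all tested genes. Cenpe, a kinetochore motor, had 42.8, 31.1 and 50.6 CPM in Phlpp1 KO, 40.1, 40.9 and 69.7 CPM in Phlpp2 KO, and 38.5, 32.1 and 45.8 CPM in Phlpp1/2 KO, against 23.7, 19.0 and 21.8 CPM in WT. Its log2 fold change was 1.01 (SE 0.21, adjusted p = 0.0859, edgeR), and Kif23, a cytokinesis kinesin, had 0.59 (SE 0.14, adjusted p = 0.104, edgeR). The lean was not shared by the replication genes Mcm2, Mcm3, Mcm4, Mcm5, Mcm6, Mcm7 and Pcna. Their log2 fold changes ran from -0.02 to 0.08, with adjusted p-values from 0.537 to 0.931 (edgeR). Rrm1, Tyms and Ccne2 had 0.18, 0.16 and 0.47, with adjusted p-values from 0.169 to 0.314 (edgeR). In CPM summed over the list, the knockouts ran from 3391 to 4529 and WT from 3277 to 3663, so the groups overlapped.

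A developmental transcription factor and a matrix protein rose with overlap between the groups. Sox11 (chromosome 12, 27334264 to 27342574), a transcription factor of early skeletal and neural development, had 27.6, 20.9 and 24.6 CPM in Phlpp1 KO, 30.8, 30.7 and 30.8 CPM in Phlpp2 KO, and 31.0, 34.5 and 34.7 CPM in Phlpp1/2 KO, against 22.8, 16.5 and 18.6 CPM in WT. Phlpp1 KO 2 was below WT 1, and every other knockout library was above all WT libraries. Sox11 rose by 0.60 on the log2 scale (SE 0.10, adjusted p = 0.017, edgeR). Tnc (chromosome 4, 63959785 to 64047015), the matrix glycoprotein tenascin C, had 533, 541 and 574 CPM in Phlpp1 KO, 441, 382 and 402 CPM in Phlpp2 KO, and 540, 555 and 544 CPM in Phlpp1/2 KO, against 345, 342 and 429 CPM in WT. Phlpp1 KO and Phlpp1/2 KO were above every WT library, while 2 of the 3 Phlpp2 KO libraries were below WT 3. Tnc rose by 0.42 (SE 0.07, adjusted p = 0.0224, edgeR), and the difference among its knockouts did not pass (adjusted p = 0.123).

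Immediate early genes leaned upward and ERK feedback genes did not lean either way, again with 0 calls in 25 and 23 genes. Of the immediate early genes, 20 were above 0, with a median of 0.13. The unadjusted p was passed by 8 of them upward and 0 downward, where 9.33% of all tested genes passed it upward. DESeq2 called 4 higher and limma-voom 1. Egr1 had 92.1, 76.5 and 68.7 CPM in Phlpp1 KO, 79.3, 67.8 and 76.6 CPM in Phlpp2 KO, and 99.1, 113 and 81.6 CPM in Phlpp1/2 KO, against 53.0, 52.0 and 61.0 CPM in WT (log2 fold change 0.59, SE 0.11, adjusted p = 0.0528, edgeR). Fos averaged 18.7 ± 1.90 CPM in the knockouts (SD, n = 9) and 13.6 ± 1.25 CPM in WT (SD, n = 3; 0.45, adjusted p = 0.0511, edgeR). Both genes encode early transcription factors. All 9 knockout libraries were above the 3 WT libraries for Egr1, Fos and Ier2, as for 1.66% of all tested genes. In CPM summed over the immediate early list, the knockouts ran from 2911 to 3615 and WT from 2615 to 2948, so the groups overlapped. The ERK list held 12 genes above 0 and 11 below, with a median of 0.00. At an unadjusted p under 0.05, 4 were higher and 2 lower. Dusp6, a phosphatase induced by ERK that switches it off, had 107 CPM in the knockouts and 84.7 CPM in WT on average (log2 fold change 0.34, adjusted p = 0.118, edgeR). DESeq2 called 2 of the ERK list higher and limma-voom 0.

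**Figure D2:**
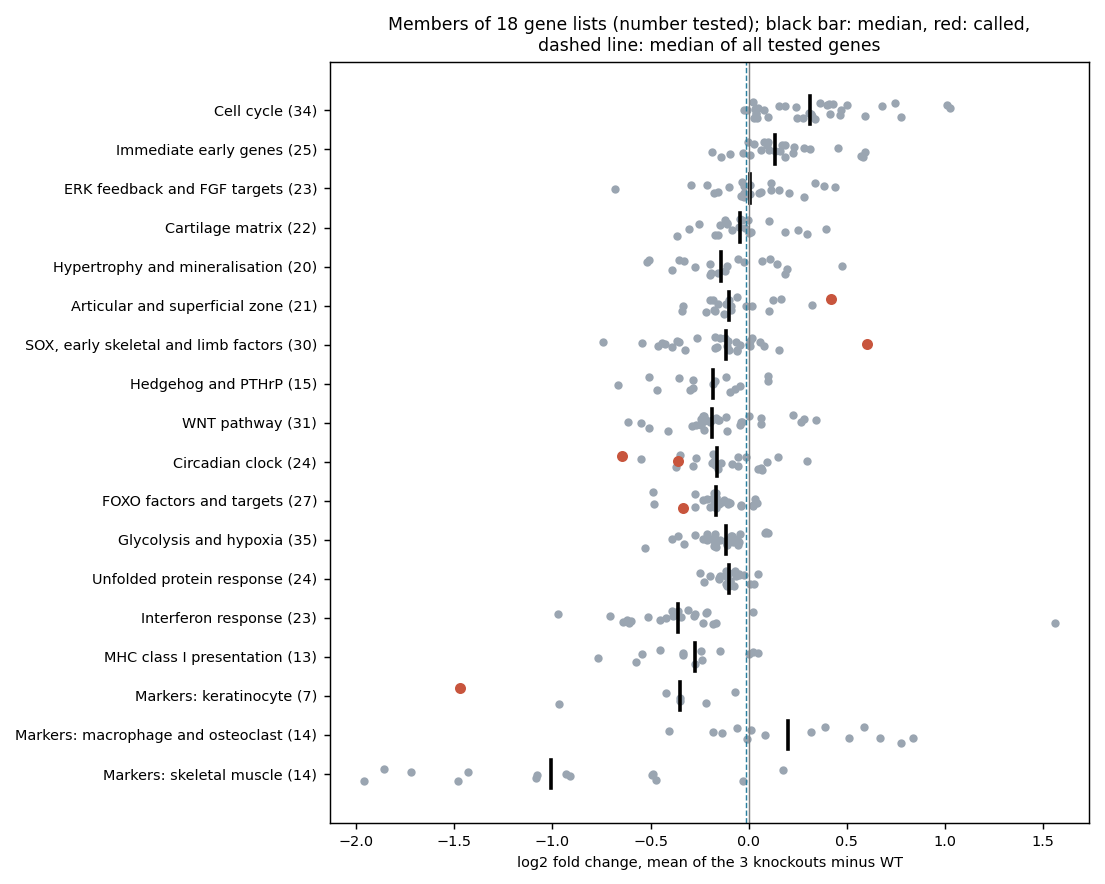
Log2 fold change of the mean of the 3 knockouts minus WT (horizontal axis) for each tested member of 18 gene lists (rows, number tested in parentheses). Points are genes, red points are called, black bars are list medians and the dashed line is the median of all tested genes, -0.01. Cell cycle has a median of 0.31, immediate early genes 0.13 and interferon response -0.36.

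The lists of cartilage matrix and of hypertrophy and mineralisation held 0 calls, and over all tested genes 0.26% were called. At that share, lists this short would rarely hold a call. At an unadjusted p under 0.05, 8.46% of all tested genes were lower and 9.33% higher. Of 22 tested matrix genes 0 were called, 1 passed the unadjusted p upward and 0 downward, and DESeq2 called 1 (Matn2) and limma-voom 0. Of 20 tested genes of hypertrophy and mineralisation, 0 were called, 3 passed the unadjusted p downward and 0 upward, and DESeq2 and limma-voom called 0. Col2a1, the main cartilage collagen, averaged 29841 ± 4856 CPM in the knockouts (SD, n = 9) and 32927 ± 7106 CPM in WT (SD, n = 3; log2 fold change -0.15, adjusted p = 0.671, edgeR). Sox9, the factor that sets chondrocyte identity, averaged 320 ± 54.9 CPM in the knockouts and 382 ± 29.2 CPM in WT (-0.25, adjusted p = 0.404, edgeR). The log2 fold changes of Acan, Col10a1, Runx2, Mmp13, Ihh and Pth1r were -0.11, 0.11, -0.20, -0.11, -0.51 and -0.35, with adjusted p-values from 0.262 to 0.848 (edgeR). Of the 30 tested SOX and limb factors, edgeR called Sox11 and DESeq2 called Sox11 and Hoxc9. In that list 22 were below 0, with a median of -0.12, and 6 were lower and 1 higher at an unadjusted p under 0.05. Hoxc9, a limb and trunk homeobox gene, averaged 6.64 ± 0.611 CPM in the knockouts and 8.93 ± 0.848 CPM in WT (-0.43, adjusted p = 0.0879, edgeR).

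Lists of signalling and metabolic genes held 0 calls, where 0.26% of all tested genes were called. At an unadjusted p under 0.05, 8.46% of all tested genes were lower and 9.33% higher. The WNT list had 25 of 31 tested genes below 0, 8 of them at an unadjusted p under 0.05 and 0 upward, and the hedgehog and PTHrP list had 13 of 15 below 0, 4 of them at that p and 0 upward. Neither held a called gene, and DESeq2 called 2 WNT genes and 0 hedgehog genes, while limma-voom called 0 of either. Medians were -0.19 and -0.18. Glycolysis and hypoxia genes were below 0 in 32 of 35, with a median of -0.12, and genes of the unfolded protein response were below 0 in 21 of 24, with a median of -0.10. Neither list held a called gene. At an unadjusted p under 0.05 they had 7 and 9 lower and 0 higher, DESeq2 called 3 of each and limma-voom 0. TGF-beta and BMP genes were 17 above 0 and 21 below 0, and IGF axis genes 9 above and 10 below. Both had 0 calls. At an unadjusted p under 0.05 the TGF-beta and BMP list had 2 higher and 4 lower and the IGF list 3 and 3. DESeq2 called 0 and 2, and limma-voom 0 of both.

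In 5 of the 23 genes the average hides unlike knockouts, and the targeted genes come first among them. Phlpp1 (chromosome 1, 106171752 to 106394250) had 9.25, 9.46 and 8.77 CPM in Phlpp1 KO, 44.6, 37.9 and 41.6 CPM in Phlpp2 KO, and 8.12, 7.71 and 8.83 CPM in Phlpp1/2 KO, against 43.8, 35.1 and 40.0 CPM in WT. It was low in exactly the 6 libraries labelled as lacking it, and the averaged contrast of -1.44 (SE 0.07, adjusted p = 1.02e-07, edgeR) mixes those with Phlpp2 KO. Phlpp2 (chromosome 8, 109868542 to 109944671) had 24.9, 22.8 and 24.9 CPM in Phlpp1 KO, 17.1, 16.8 and 19.4 CPM in Phlpp2 KO, and 11.1, 10.2 and 11.4 CPM in Phlpp1/2 KO, against 28.1, 22.4 and 25.8 CPM in WT. It was below WT in the 6 libraries labelled as lacking it and lowest in Phlpp1/2 KO (contrast -0.60, SE 0.07, adjusted p = 0.00205, edgeR). Reads from any exon enter these counts, including exons that a deletion may have spared. The test for a difference among the 3 knockouts gave adjusted p = 1.95e-08 for Phlpp1 and 0.000450 for Phlpp2 (edgeR's quasi-likelihood F test, Benjamini-Hochberg). Over all genes that test called 18, or 0.109%, and 9.74% passed it at an unadjusted p under 0.05.

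Mlph, Dhrs7 and Ciapin1 differed among the knockouts as well. Mlph (chromosome 1, 90915085 to 90951142), which links vesicles to myosin, had 26.8, 28.6 and 28.3 CPM in Phlpp1 KO, 12.7, 11.8 and 16.7 CPM in Phlpp2 KO, and 29.1, 24.4 and 24.2 CPM in Phlpp1/2 KO, against 11.5, 12.9 and 15.1 CPM in WT. It was high in the libraries that lack Phlpp1 by label, and 15.2 Mb separate its end from the start of Phlpp1. Its test among knockouts gave adjusted p = 0.00986 (edgeR). Dhrs7 (chromosome 12, 72650353 to 72664909), a short-chain dehydrogenase, had 20.4, 19.0 and 21.0 CPM in Phlpp1 KO, 34.5, 41.7 and 41.1 CPM in Phlpp2 KO, and 28.2, 30.3 and 28.8 CPM in Phlpp1/2 KO, against 32.5, 42.5 and 40.9 CPM in WT. Phlpp2 KO lay within the WT range, Phlpp1/2 KO lay below it and Phlpp1 KO was lowest (adjusted p among knockouts = 0.00419, edgeR). Ciapin1 (chromosome 8, 94819804 to 94838358), a protein of cytosolic iron-sulfur cluster assembly, had 72.6, 74.4 and 65.9 CPM in Phlpp1 KO, 87.2, 80.8 and 81.7 CPM in Phlpp2 KO, and 115, 122 and 105 CPM in Phlpp1/2 KO, against 62.6, 67.7 and 72.0 CPM in WT. Phlpp1/2 KO was highest and Phlpp2 KO next (adjusted p among knockouts = 0.00334, edgeR), and the gene lies 15 Mb from Phlpp2.

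**Figure D3:**
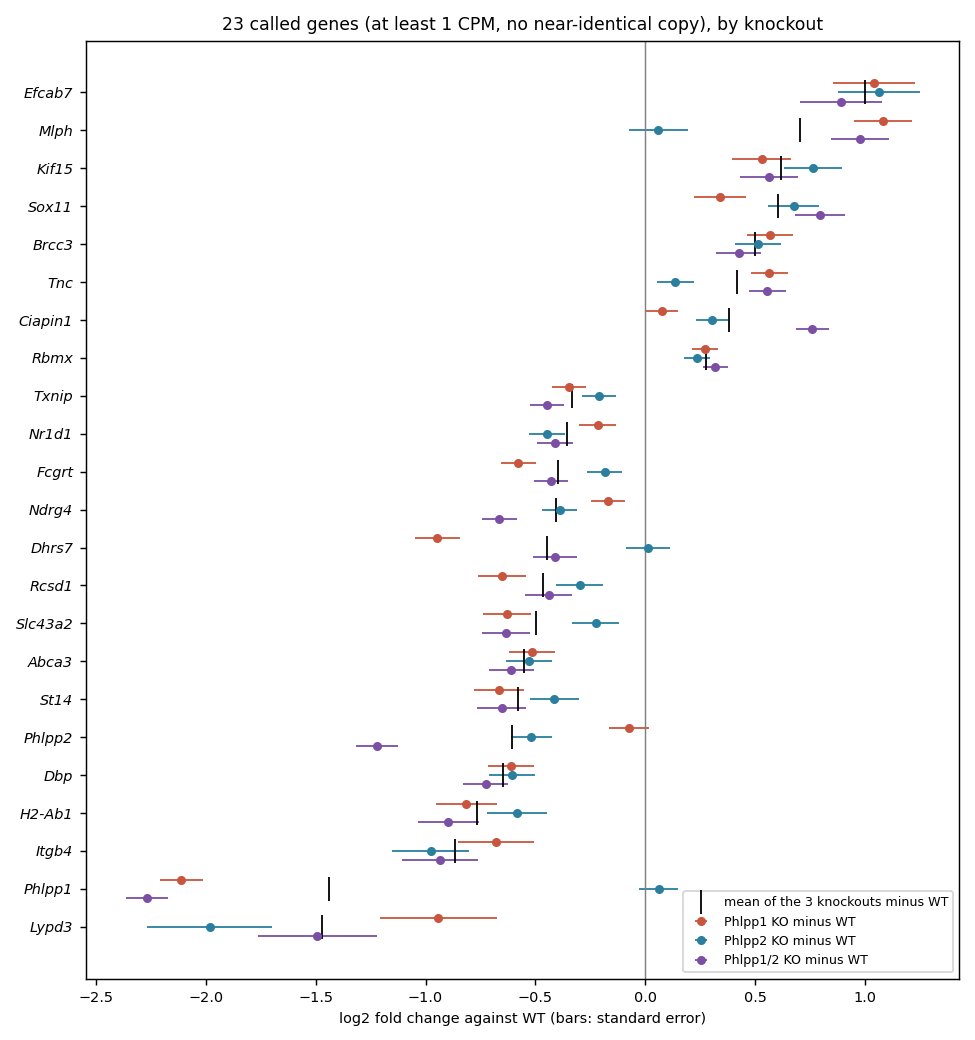
Log2 fold change against WT (horizontal axis) of the 23 called genes (rows), for Phlpp1 KO, Phlpp2 KO and Phlpp1/2 KO, each with its standard error, and for the mean of the 3 (black bar). Efcab7 has 1.04, 1.06 and 0.89 in Phlpp1 KO, Phlpp2 KO and Phlpp1/2 KO, while Mlph has 1.08, 0.06 and 0.98.

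Within 20 Mb of Phlpp1, 146 genes were tested and 2 were called in the averaged contrast (1.37%, Mlph and D2hgdh), against 0.26% of all tested genes. Within 20 Mb of Phlpp2, 344 were tested and 2 were called (0.581%, Ciapin1 and Ndrg4). For the test among knockouts, 6 of the 146 genes near Phlpp1 and 1 of the 344 near Phlpp2 differed, against 0.109% of all tested genes. The allele left by targeting and sequence carried along from the strain in which it was made cannot be told apart from loss of the phosphatase for genes in these windows. Overlapping genes were also checked, because the strand setting of the counting is not given. Efcab7, Dbp, Ciapin1 and Nr1d1 overlap Itgb3bp, Sphk2, Coq9 and Thra, whose log2 fold changes were -0.06, -0.15, -0.06 and -0.12, with adjusted p-values from 0.236 to 0.842 (edgeR). Abca3, Txnip, Tnc and Slc43a2 overlap D330041H03Rik, Gm15441, 8030451A03Rik and Gm45606, whose log2 fold changes of -0.37, -0.48, 0.91 and -0.25 had the sign of their partner (adjusted p-values from 0.257 to 0.735). These last 4 averaged under 3 CPM in both groups.

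The number of calls moved with the 3 WT libraries, which all 3 knockouts share. Without WT 1, WT 2 or WT 3, the contrast called 25, 17 and 23 genes, of which 8, 4 and 7 were among the 23. Phlpp1 and Phlpp2 were called in all 12 refits that left out 1 library, Dbp in 11, and Lypd3, Itgb4, H2-Ab1, Abca3, Efcab7, Sox11, Tnc, Ciapin1 and Mlph in 10. The lone miss of Dbp was without WT 2 (adjusted p = 0.0509, edgeR). Nr1d1 and Rcsd1 were called in 2 refits, and Txnip, Slc43a2 and Dhrs7 in 4. Without both low-Xist libraries 34 genes were called, including 10 of the 23, and without the 4 libraries of other strain labels 51 were called (36 higher, 15 lower), including 7 of the 23. Across the 13 alternatives (these 2 included) of scaling, filter, grouping, omitted groups and tool, Dbp and H2-Ab1 were called in all 13 and Lypd3, Itgb4, Brcc3 and Efcab7 in 12.

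**Figure D4:**
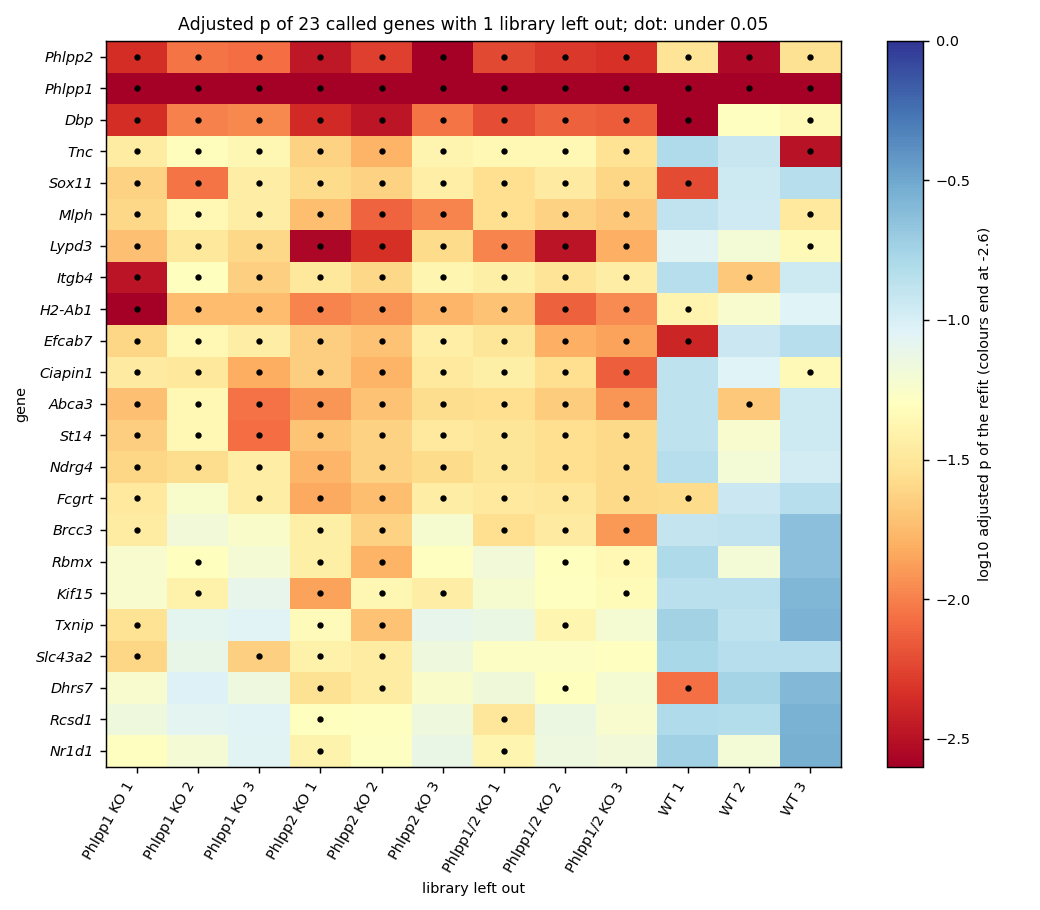
Adjusted p (colour, log10 scale) of each of the 23 called genes (rows) with each of the 12 libraries left out in turn (columns, knockout libraries left of WT), where a dot marks an adjusted p under 0.05. The WT columns hold the fewest dots, with 8 without WT 1, 4 without WT 2 and 7 without WT 3.

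The other 20 calls were kept out of the account above. They comprised 12 pseudogenes, 5 higher and 7 lower, 7 genes with a stretch nearly the same as one elsewhere in the genome, 4 higher and 3 lower, and mt-Tg, which stayed under 1 CPM. That stretch covered only 5.22% of the Fgfr1op transcript and 11.9% of that of Ska2. In 5 pairs of a gene and its copy, the split of the counts differed between the groups. In the pair of Rps2, a ribosomal protein gene, and its pseudogene Rps2-ps10, the copy took 0.659% ± 0.0606 of the pair's CPM in the knockouts (SD, n = 9, range 0.576% to 0.762%), against 24.5% ± 0.446 in WT (SD, n = 3). In the pair of Rnps1, an RNA-binding protein gene, and Gm9825, the copy took 1.42% ± 0.176 in the knockouts (range 1.22% to 1.79%), against 12.8% ± 0.361 in WT. In these shares the groups did not overlap in either pair, and all 9 knockout libraries lay close together. The summed CPM of both pairs was also higher in every knockout library than in WT. The Rps2 pair summed to 2525 to 3011 CPM in the knockouts and 2077 to 2431 CPM in WT. The Rnps1 pair summed to 142 to 161 CPM in the knockouts and 126 to 128 CPM in WT.

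The copy's share moved the other way in the mitochondrial pairs. Gm28438, a nuclear copy on chromosome 1 of the mitochondrial gene mt-Nd3, took 91.0% ± 2.41 of the pair's CPM in the knockouts (SD, n = 9, range 87.1% to 94.0%), against 11.9% ± 1.86 in WT (SD, n = 3, range 10.2% to 13.9%). The pair together had 19.7 ± 3.92 CPM in the knockouts and 22.4 ± 1.99 CPM in WT. The sums overlapped, with 14.7 to 28.1 CPM in the knockouts and 21.1 to 24.7 CPM in WT. The reference sequences of the pair differ at 1 of 345 aligned bases, T3C, counted from the first base of the mt-Nd3 transcript, and the first 18 bases of each are shown, with the base that differs in capitals.
mt-Nd3: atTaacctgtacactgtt
Gm28438: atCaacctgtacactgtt

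The pairs of mt-Nd4l with Gm10222 and mt-Co3 with Gm28437 differ at 0 of 294 and 0 of 783 bases. Gm10222 took 63.0% ± 4.39 of its pair in the knockouts, against 20.5% ± 1.04 in WT, and Gm28437 took 60.2% ± 2.70 in the knockouts, against 37.7% ± 1.59 in WT. In the refits without 1 library, Rps2-ps10, mt-Nd3, Gm9825, Rnps1 and Rps2 were called in all 12. Of the 13 mitochondrially encoded genes, mt-Nd3 and mt-Nd4l were called and 10 were above 0, with a median log2 fold change of 0.32. At an unadjusted p under 0.05, 9 were higher and 3 lower, where 9.33% and 8.46% of all tested genes were. DESeq2 called 4 higher (mt-Nd1, mt-Co1, mt-Co2 and mt-Cytb) and 3 lower, and limma-voom called 2. No near-identical copy was found for mt-Nd1 (log2 fold change 0.41, adjusted p = 0.108, edgeR) or mt-Cytb (0.47, adjusted p = 0.182, edgeR). With both a gene and its copy open to the same reads, the counts of the 5 pairs do not show which of them the reads came from. Genotype and any sequence difference between the WT and knockout stocks cannot be told apart here.

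**Figure D5:**
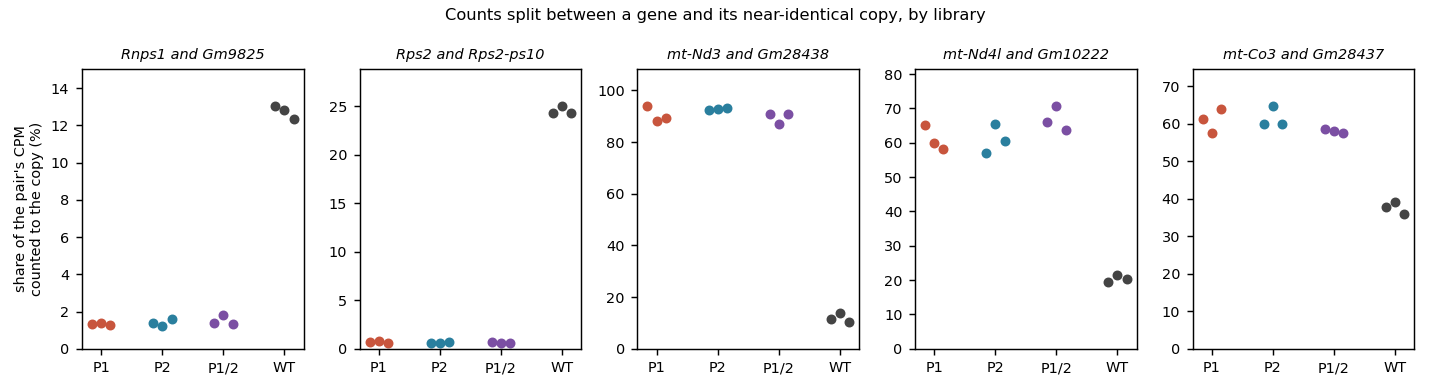
Share of a pair's CPM counted to the near-identical copy (vertical axis, percent, from 0) by library, for Phlpp1 KO, Phlpp2 KO, Phlpp1/2 KO and WT (horizontal axis) in 5 pairs. Points are libraries. The share of Rps2-ps10 lies between 0.576% and 0.762% in the 9 knockout libraries and averages 24.5% in WT, and that of Gm28438 between 87.1% and 94.0% in the knockouts and between 10.2% and 13.9% in WT.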

How the data were processed

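RNA of 12 libraries was measured by bulk RNA sequencing, with a NEBNext Ultra II RNA kit per the labels' protocols. The authors deposited a table of raw counts per gene. Per the submitters' processing notes they used bcl2fastq 2.17, STAR 2.5.2b and featureCounts of Subread 1.5.2 on mm10. Not given in the sources used here are the strand setting, annotation release and treatment of multiply matching reads. Of 49315 genes listed, the 174 without a symbol carried 0.00419% of counts. Positions of 49056 came from GENCODE vM21.

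From these counts, edgeR 4.0.16 in R 4.3.3 was run with its low-count filter (16565 genes kept, 32750 removed), TMM scaling and a robust quasi-likelihood fit of 4 genotype terms over 12 libraries (8 residual degrees of freedom, common biological coefficient of variation 0.105). The contrast was the mean of the 3 knockout terms minus WT. An F test asked whether the 3 knockouts differ. P-values were adjusted over all tested genes by the Benjamini-Hochberg method, and an adjusted p under 0.05 was a call. CPM used scaled library sizes. DESeq2 1.42.0 and limma-voom (limma 3.58.1) were alternatives. Near-identical copies were searched with BLAST+ 2.17.0 (at least 95% identity over at least 150 bases).

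Genes were named by a rule: up to 12 called genes each way with all knockout libraries on one side of WT and at least 1 CPM, up to 6 called genes whose knockouts differ, 12 fixed genes, and from each list the calls and up to 3 more of the smallest p. Fcgrt, and list members beyond that rule, were chosen after their values were seen. Genes, lists and rules were chosen with earlier results of these data known, so they are no independent support. Replicate numbers were checked for pairing: 4 of 18 same-numbered pairs correlated over 0.1 (median -0.05, against 0.0046 for other pairs). Weak correlation cannot exclude a shared batch. The main fit had no pairing term, and a replicate block was fitted as an alternative.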

Additional observations from a re-analysis of the deposited data

Results flagged for a closer look

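For 5 of the called genes the 3 knockouts differed from each other by edgeR's quasi-likelihood F test with Benjamini-Hochberg adjustment. The adjusted p-values were 1.95e-08 for Phlpp1, 0.000450 for Phlpp2, 0.00334 for Ciapin1, 0.00419 for Dhrs7 and 0.00986 for Mlph. The log2 fold changes of Ciapin1 were 0.07 in Phlpp1 KO, 0.30 in Phlpp2 KO and 0.76 in Phlpp1/2 KO. Those of Dhrs7 were -0.95, 0.01 and -0.41 in the same order of genotypes, and those of Mlph were 1.08, 0.06 and 0.98.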

How the results depend on the processing

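The averaged contrast called 43 genes and the test among knockouts 18. The first count was 289 with no filter on low counts (163 higher, 126 lower), 24 among protein-coding nuclear genes, 27 with all knockouts as 1 group, 621 with DESeq2 (414 higher, 207 lower), 295 without Phlpp2 KO and 604 without Phlpp1/2 KO (520 higher, 84 lower). The second was 116 with no filter and 6 without both low-Xist libraries. With the replicate block the first was 97 (67 higher, 30 lower) and the second 21, and 5 of 12 libraries correlated best with their own number. Leaving out 1 library gave 17 to 90 calls and 10 to 57 genes differing. The first count was 25, 17 and 23 without WT 1, 2 or 3, and 82 and 90 without Phlpp2 KO 1 or 2. The second was 11 without Phlpp1 KO 1, 57, 10 and 10 without Phlpp2 KO 1, 2 or 3, and 28 and 38 without Phlpp1/2 KO 2 or 3. The cause of these shifts was not tested. Nr1d1, Txnip and Rcsd1 missed the threshold with the block (adjusted p = 0.0515 each, edgeR), and it ended no other call of the 23. Other scaling (41 calls), a stricter filter (41), limma-voom (39), omission of Phlpp1 KO (30), of both low-Xist libraries (34) and of the 4 libraries of other strain labels (51) stayed within 1.5 times in total, but the last gave 36 higher and 15 lower, against 17 and 26. None of the 23 turned direction in these refits. With 3 WT libraries shared by every knockout, a change in WT alone and a change common to all knockouts cannot be told apart, and 1 count was worth up to 0.0453 CPM.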
